A study of Mus musculus with 10 samples.

Results

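Slice microglia at 1 week were compared with adult microglia in 4 of the 10 single cell libraries of this series. Both libraries sorted from brain slices cultured for 1 week and both libraries sorted from adult brain were taken by their labels. Cells were kept when at most 5% of their unique molecular identifiers (UMIs, 1 per captured transcript) came from mitochondrial genes, at least 400 genes were detected and no more than 30000 UMIs were counted. This left 209 cells from 1 week slices and 7326 from adult brain, 7535 of the 19059 cells kept over the whole series. Counts were summed over the cells of a library, and the library was the unit of every comparison.

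Microglia are the resident macrophages of the brain parenchyma. In healthy adult brain they carry a gene signature that includes the purinergic receptor *P2ry12* and the membrane protein *Tmem119*, and they depend on signals from the surrounding tissue such as CSF1R ligands and TGF-beta to keep it. After injury, during development or when they take up lipid-rich debris, microglia lower many of these genes and raise *Apoe*, *Spp1*, *Gpnmb* and *Lpl*, a set often called disease-associated.

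All samples were C57BL/6 mouse cells with no altered allele or drug named in the labels, sequenced with 10x Genomics 3' chemistry. Cells of adult brain and of slices were isolated over a density gradient and sorted as live CD11b high, CD45 intermediate cells. Adult microglia came from brain tissue of adult mice and were never cultured. The slice microglia came from coronal forebrain slices of early postnatal pups, kept on a membrane insert in medium with horse serum and PDGF for 1 week. The CD45 intermediate gate is meant to leave out blood leukocytes, which carry more CD45. The other groups of the series were slices after 1 day, slices after 3 weeks and mixed glial *in vitro* cultures, each with 2 libraries. Adult replicate 1 and 3 week replicate 1 carry a study label that differs from that of all other libraries. Both 1 week libraries and adult replicate 2 thus share a label, and what it stands for is not given. Leaving out adult replicate 1 also leaves out the other label from the comparison with adult microglia. The paper states that slices were pooled where needed before dissociation. It does not say how many slices or pups went into a single cell library. The adult mice were weeks older than the cultured cells, and age, slicing and culture cannot be told apart. The labels give separate samples but not separate cultures or mice, so the p-values measure the spread between these samples.

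The 1 week libraries held few cells, 148 in replicate 1 and 61 in replicate 2, against 3799 and 3527 in the adult libraries. Their cells were the deeper ones, with a median of 6830.5 and 6841 UMIs per cell against 3257 and 1858. Summed over cells the order turned, with 1080763 and 385373 UMIs at 1 week and 12388843 and 6798474 in adult microglia. A single UMI was therefore worth about 1 to 3 CPM (UMIs per 1000000 UMIs of a library) in a 1 week library, and a gene without a UMI over both could lie at up to 2.14 CPM (3 counts), against 0.140 CPM over both adult libraries. These limits cover counting error only. The 1 week libraries shared 0 cell barcodes with each other and at most 1 with either adult library. Over the 12157 genes tested, log2 CPM correlated at r = 0.978 between the adult libraries, 0.832 between the 1 week libraries and 0.753 to 0.766 between the groups, which describes the libraries and is no test. *Xist*, the RNA of the inactive X chromosome, was at 1207 and 1100.2 CPM in adult libraries, 779.7 CPM in 1 week replicate 1 and 0 in 1 week replicate 2. The Y-linked gene *Eif2s3y* was at 89.6 CPM in 1 week replicate 2 and at 0 in replicate 1, so the 1 week libraries also differed in sex. In the adult libraries it was at 0.073 and 0 CPM, so 1 week replicate 2 differed in sex from both. Fits without 1 week replicate 1 therefore also compare libraries of unlike sex.

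The sorted 1 week cells were not all microglia by their markers. In replicate 1, 24 of 148 cells (16.2%, 95% exact binomial interval 10.7 to 23.2%) had at least 2% of their UMIs in a list of 12 neutrophil genes, with a median of 26.9%. The cell nearest below that limit was at 1.00% and the nearest above at 4.05%. In replicate 2 this was 1 of 61 cells, and in adult microglia 0 of 3799 and 0 of 3527, which allows up to 0.0971% and 0.1045%. A further 37 cells (25%) in replicate 1 and 12 (19.7%) in replicate 2 had under 0.6% of UMIs in 10 microglia marker genes, against 5 and 0 adult cells. This limit falls in no gap in replicate 1, where the nearest cells were at 0.597% and 0.608%, and in replicate 2 they were at 0.454% and 0.625%, so the low-marker cells are a range and not a type. These low-marker cells were shallow, with a median of 3218 and 1908 UMIs. In replicate 1 the median share of the nuclear RNA *Malat1* was 0.0660% in low-marker cells and 0.822% in the other cells, while in replicate 2 the order was the other way, at 0.987% and 0.568%. The remaining 87 and 48 cells carried the microglia markers at a median of 1.51% and 1.49% of UMIs, against 3.91% and 3.78% in adult cells. Every cell of replicate 1 carried some neutrophil RNA, at a median of 0.579% of UMIs in the 87 remaining cells, against 0.0126% in the 48 of replicate 2. Summed over all kept cells, the microglia markers took 1.11% and 1.36% of UMIs at 1 week and 3.92% and 3.79% in adult libraries. Both limits, 2% and 0.6%, were set after seeing the data. Fits without the cells past them stand beside the results, and "the remaining cells" are those that neither limit took out.

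**Figure D1:**
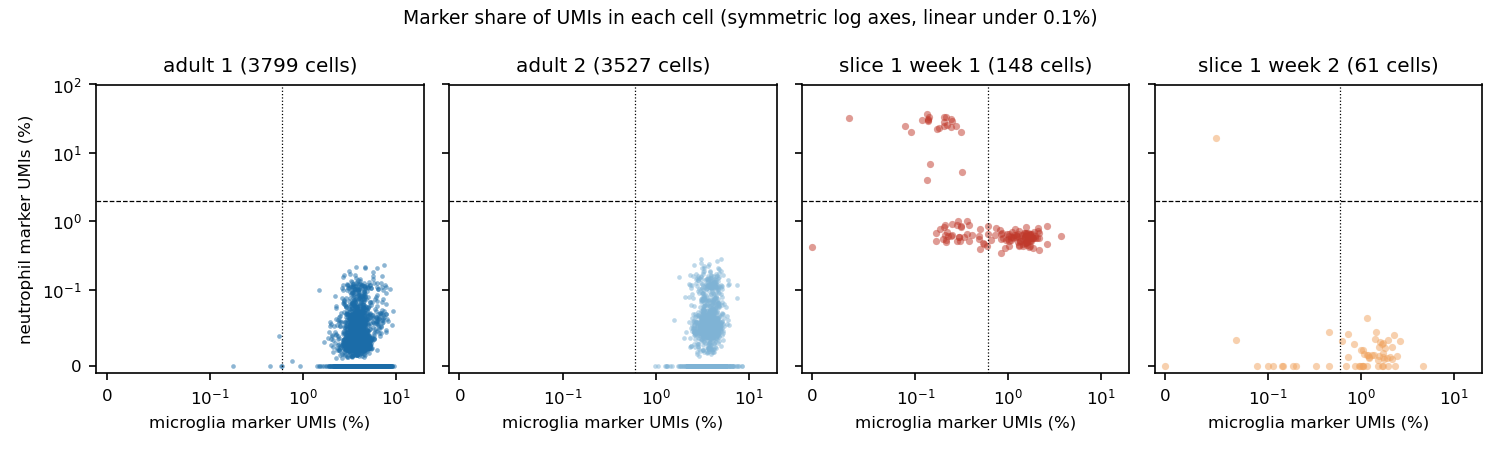
Share of UMIs in 10 microglia marker genes (horizontal) and in 12 neutrophil marker genes (vertical) for each cell of the 4 libraries, both in percent on symmetric log axes that are linear under 0.1%, with dashed and dotted lines at 2% and 0.6%. The 24 cells above the 2% line in slice 1 week replicate 1 sit apart from the rest, and every other cell of that library lies higher than all but 1 cell of replicate 2.

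Neutrophil genes moved with replicate 1. *S100a8*, a subunit of calprotectin, which is stored in neutrophils, was at 4.10 and 0.129 CPM in adult libraries and 19149 and 489 CPM in the 1 week libraries (log2FC 12.01 ± 1.85, adjusted p = 0.00093). Its level was 116380.0 CPM within the 24 neutrophil-marker cells and 2309 CPM in the 87 remaining cells of replicate 1, against 39.9 CPM in the 48 of replicate 2. The neutrophil list took 4.15% and 0.103% of UMIs at 1 week and 0.0212% and 0.0178% in adult microglia. Of its 12 genes, 11 rose and 1 fell. In the fit without the neutrophil-marker cells 10 rose and 1 fell, as in the remaining cells. Leaving those cells out thus did not take out the rise of this list. Its median log2FC was 12.34 over all cells, 9.53 in the remaining cells and 0 without replicate 1. Monocyte genes rose in 8 of 10, at 0.0880% of UMIs in replicate 1 and at 0 UMIs for the whole list in replicate 2. *Ly6c2*, a monocyte surface protein, was at 0 in both adult libraries and at 94.9 and 0 CPM at 1 week, and without the neutrophil-marker cells 3 of the 10 monocyte genes rose. Over all cells the median log2FC of the monocyte list was 5.66. It was 8.10 without adult replicate 1, 5.04 without adult replicate 2 and -3.50 without 1 week replicate 1. Of its genes, 6 were at 0 counts over a group, where a fitted value is no bound.

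Genes of border-associated macrophages, which line the meninges and vessels, rose in 7 of 8, at 0.0588% and 0.0376% of UMIs against 0.00140% and 8.2e-04%. *Ms4a7*, a membrane protein of these macrophages, was at 2.49 and 2.19 CPM in adult and 289 and 120.2 CPM in 1 week libraries (log2FC 6.47 ± 0.40, adjusted p = 3.1e-06). *Pf4*, a platelet-type chemokine they also make, was at 4.32 and 1.29 against 121 and 123 CPM (log2FC 5.34 ± 0.68, adjusted p = 0.00031). Their lymphatic-type receptor *Lyve1* and scavenger receptor *Cd163* were at 0 in replicate 2. All 7 rises were called in the fit of the remaining cells too, 6 without either adult library, and 5 without 1 week replicate 1 and in the fit of these 4 libraries alone. They rest on few UMIs for *Lyve1* and *Cd163*, whose fitted direction turned without replicate 1 (log2FC -3.48 and -4.08). The *in vitro* cultures of the series had 0.472% and 0.447% of UMIs in this list. A higher share of it therefore does not by itself show that such macrophages were sorted. The part of such macrophages in the other results was not tested.

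Neuronal transcripts were also present. *Meg3*, a long noncoding RNA of neurons, was at 0 in both adult libraries and at 319 and 512 CPM at 1 week, at least 2662-fold higher and at least 965-fold whichever library is left out. It was concentrated in the low-marker cells, at 1854 and 6039.6 CPM there against 48.6 and 14.2 CPM in the remaining cells. Of 6 neuron genes tested, 5 rose, while 3 rose in the remaining cells and 2 without replicate 1. Of the T or NK cell and B cell lists 1 gene each was tested and none was called by edgeR or DESeq2 or had an unadjusted p under 0.05 by edgeR, and by edgeR none of 6 erythroid genes was called or had an unadjusted p under 0.05, while DESeq2 called 4 lower, as did edgeR with the replicate block and with no filter on low counts. Erythroid genes took 0.186% of UMIs in adult replicate 1 and at most 2.6e-04% in the other 3 libraries.

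In the comparison of slice microglia at 1 week with adult microglia, 1822 of 12157 genes were up-regulated (15%) and 1650 were down-regulated (13.6%). A gene was called a differentially expressed gene (DEG) at a false discovery rate under 0.05 and a fold change over 1.5, by edgeR's quasi-likelihood test with Benjamini-Hochberg adjustment in 1 fit of all 10 libraries. "Rose" and "fell" mean such a call. Values below are TMM-scaled CPM in replicates 1 and 2 of a group, in that order and with adult libraries first, and log2 fold changes (log2FC, slice at 1 week over adult) ± SE. Over all genes the median log2FC was -0.08. A log2FC of 2 was passed by 913 up-regulated and 383 down-regulated genes, which are not ranked against each other, since a count of 0 stands for up to 2.14 CPM at 1 week and 0.140 CPM in adult libraries, so large folds could be measured further upward. Without the neutrophil-marker cells, 1605 of the up-regulated and 1549 of the down-regulated genes were again DEGs. In the remaining cells (also without low-marker cells) this was 1374 and 1188. Without 1 week replicate 1, which leaves 61 cells in 1 library, 804 and 516 of them were called again. Fits that leave a group with 1 library, here and below, take their spread from the other groups and assume that the lone library varies as they do. List counts are to be read beside the shares of all genes, 15% and 13.6%. These shares were smaller in the remaining cells (1472 higher and 1278 lower of 11646 tested) and in fits that leave out 1 library. Fewer calls in a list there are by themselves no result about that list. In summed counts, fewer cells of a type and less RNA per cell cannot be told apart. When libraries were scaled by total UMIs alone, the median log2FC moved to -0.30 and the split to 1518 up- and 2507 down-regulated genes, and DESeq2 gave 2126 and 1300.

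**Figure D2:**
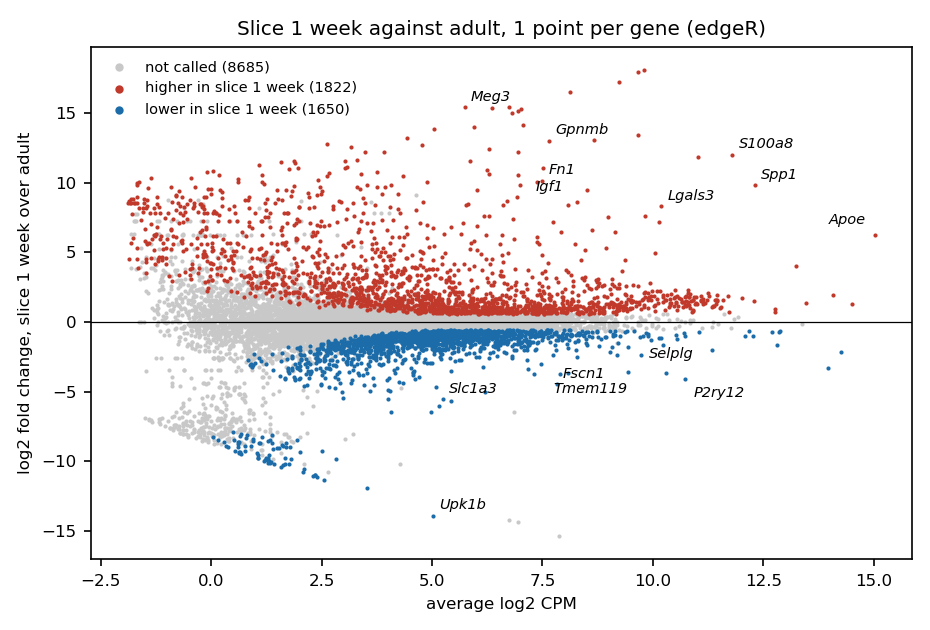
Log2 fold change of slice microglia at 1 week over adult microglia (vertical) against average log2 CPM (horizontal), 1 point per tested gene, with the 1822 genes called higher in red, the 1650 called lower in blue and the 8685 not called in grey. *Apoe* and *Spp1* lie far right among the rises, *P2ry12* and *Tmem119* among the falls, and genes at 0 in a group form the outer bands, where the fitted value is no bound.

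All 30 homeostatic microglia genes fell, each below both adult libraries in both 1 week libraries, a separation that held for 37.1% of all genes. The median log2FC of this list was -1.97, and it took 11.99% and 11.1% of UMIs in adult microglia against 1.48% and 1.84% at 1 week. *P2ry12* (chr3:59216271-59262985, GRCm38), the ADP receptor that steers microglial processes to injury, was at 6486 and 7398 CPM in adult and 426 and 402 CPM in 1 week libraries (log2FC -4.07 ± 0.32, adjusted p = 1.8e-05). *Tmem119* went from 2661 and 2668 to 215 and 228 CPM (log2FC -3.59 ± 0.43, adjusted p = 0.0002), and *Selplg*, a ligand of selectins, from 4852 and 4563 to 357 and 407 CPM (log2FC -3.63 ± 0.33, adjusted p = 4.6e-05). These 3 genes differed between groups by far more than between the libraries of a group. *Siglech*, a sialic acid-binding lectin, was at 1169 and 885 CPM against 63.2 and 102 CPM (log2FC -3.69 ± 0.47, adjusted p = 0.00029). *Slc2a5*, a fructose transporter, was at 689 and 608 CPM against 48.4 and 48.6 CPM (log2FC -3.74 ± 0.60, adjusted p = 0.0012). For these genes too both 1 week libraries were far below both adult libraries. *Lag3*, an immune checkpoint receptor, was at 669 and 701 CPM against 50.4 and 56.3 CPM (log2FC -3.70 ± 0.31, adjusted p = 2.3e-05). The cysteine protease inhibitor *Cst3* dropped from 63304 and 52692 to 5392 and 6374 CPM (log2FC -3.30 ± 0.26, adjusted p = 1.6e-05).

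*Upk1b*, a membrane protein of the tetraspanin family, was lost from the counts, with 133 and 155 CPM in adult libraries and no UMI in either 1 week library, at least 65.96-fold lower (adjusted p = 0.00035), or at least 18.4-fold without replicate 1. The growth factor and chemokine receptors fell less. *Csf1r*, the receptor that microglia need to survive, was at 3459 and 3179.7 CPM in adult and 1283 and 1504 CPM in 1 week libraries (log2FC -1.25 ± 0.22, adjusted p = 0.00184). *Cx3cr1*, the receptor of neuronal fractalkine, was at 2262 and 1958 against 863 and 869.9 CPM (log2FC -1.28 ± 0.16, adjusted p = 0.00031). Among the remaining cells, 25 of the 30 genes were called lower, with a median log2FC of -1.80, and *P2ry12* stayed close to its value (log2FC -3.80, adjusted p = 2.5e-05). The limit that defines these cells uses 10 marker genes, 9 of which are also in the homeostatic list, so it acts on the list itself. Without 1 week replicate 1, 19 of 30 were called, with a median of -1.71.

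**Figure D3:**
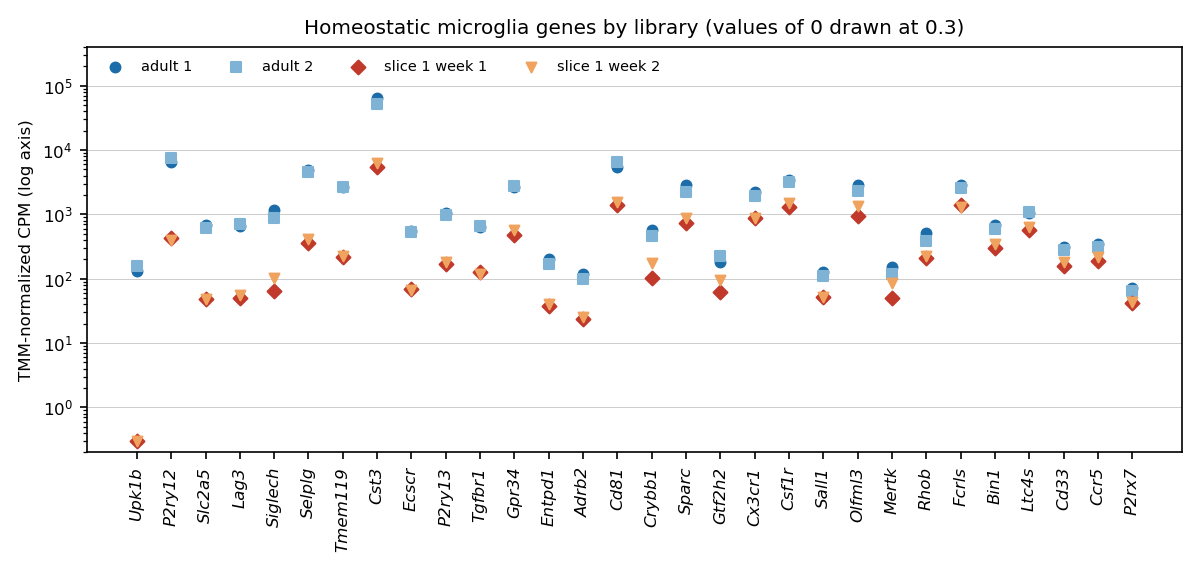
TMM-scaled CPM of the 30 homeostatic microglia genes in each of the 4 libraries, on a log axis, ordered from the largest to the smallest fall, with values of 0 drawn at 0.3. Both slice 1 week libraries (red and orange) lie below both adult libraries (blue) for each gene, and *Upk1b* is at 0 in both.

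Transcription factors of the microglial lineage split, with 6 of 19 up-regulated, 6 down-regulated and a median log2FC of -0.17. *Spi1*, which encodes the myeloid master factor PU.1, was not called, at 592 and 600.0 CPM in adult and 548 and 461 CPM in 1 week libraries (log2FC -0.24 ± 0.14, adjusted p = 0.235). *Sall1*, which sets microglia apart from other macrophages, fell from 128 and 108 to 51.4 and 51.2 CPM (log2FC -1.21 ± 0.26, adjusted p = 0.00613), and so did *Sall3* (log2FC -1.36 ± 0.30, adjusted p = 0.00701) and *Mef2c* (log2FC -1.06 ± 0.15, adjusted p = 0.00054). Of these, *Sall1* (log2FC -1.18, adjusted p = 0.103) and *Sall3* (log2FC -0.92, adjusted p = 0.216) lost their calls without replicate 1. The interferon regulatory factor *Irf8* fell from 739 and 870.4 to 524 and 522 CPM (log2FC -0.62 ± 0.15, adjusted p = 0.0112), a call that was lost in the remaining cells (log2FC -0.43, adjusted p = 0.0852) and without replicate 1 (log2FC -0.60, adjusted p = 0.0872). Among the rises were *Klf2*, a Kruppel-like factor, from 20.1 and 8.50 to 128 and 141 CPM (log2FC 3.19 ± 0.39, adjusted p = 0.00023), and *Bhlhe40*, a repressor induced in activated macrophages, from 0.220 and 0.386 to 23.7 and 10.2 CPM (log2FC 6.04 ± 0.56, adjusted p = 4.9e-05). *Tfec*, a factor of the MiT family, was at 15.8 and 2.56 CPM at 1 week against 0.952 and 0.386 CPM (log2FC 3.97 ± 0.86, adjusted p = 0.00612), and lost its call without replicate 1 (log2FC 1.82, adjusted p = 0.702). With the remaining cells alone, 6 of the 19 rose and 4 fell. Without replicate 1, 2 of the 19 were called higher and 1 lower. The median was 0.03 without adult replicate 1 and -0.04 without 1 week replicate 2.

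Of 12 genes of the TGF-beta pathway, which maintains microglial identity, 6 fell and none rose, with a median log2FC of -0.74. The ligand *Tgfb1* went from 539.5 and 478 to 275 and 261 CPM (log2FC -0.92 ± 0.18, adjusted p = 0.00308). Its type I receptor *Tgfbr1* went from 637 and 666 to 128 and 120.2 CPM (log2FC -2.38 ± 0.20, adjusted p = 2.6e-05), while the type II receptor *Tgfbr2* was at 113 and 79.2 against 101 and 118 CPM (log2FC 0.16 ± 0.20, adjusted p = 0.593). The feedback inhibitors *Smad7* (log2FC -0.91 ± 0.27, adjusted p = 0.0253) and *Skil* (log2FC -0.84 ± 0.27, adjusted p = 0.0388) also fell, and both calls were lost in the remaining cells (*Smad7* log2FC -0.82, adjusted p = 0.0583, *Skil* log2FC -0.68, adjusted p = 0.0964), where 3 of the 12 were called. Without replicate 1, 3 were called too, which left out *Smad7* (log2FC -0.81, adjusted p = 0.265) and *Skil* (log2FC -0.50, adjusted p = 0.443).

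Antigen presentation genes fell or were not called. Of 9 MHC class II genes tested, 5 fell and none rose, with a median log2FC of -1.57. *H2-DMb1*, a chain of the peptide exchange factor, went from 235 and 253 to 68.2 and 81.9 CPM (log2FC -1.73 ± 0.20, adjusted p = 0.00016), and *H2-DMa*, its partner chain, from 323 and 348 to 83.01 and 154 CPM (log2FC -1.57 ± 0.39, adjusted p = 0.0129). *H2-Oa*, which restrains that factor, went from 77.6 and 78.6 to 8.89 and 5.12 CPM (log2FC -3.33 ± 0.39, adjusted p = 0.00019). The classical chains *H2-Aa* and *H2-Eb1* had no UMI at 1 week, against 19.8 and 13.1 CPM for the former and 14.7 and 6.83 CPM for the latter in adult libraries, at least 8.12-fold and 5.55-fold lower, or at least 2.26-fold and 1.54-fold without replicate 1. They were not called over all cells (adjusted p = 0.129 and 0.149) and were called lower in the remaining cells (adjusted p = 0.00628 and 0.0335), while *H2-Ab1* was at 52.4 and 25.6 CPM at 1 week (log2FC 0.29 ± 0.57, adjusted p = 0.745). In MHC class I, 5 of 16 fell and none rose, with a median of -0.50. *Tap2*, a peptide transporter subunit, went from 102 and 109 to 40.5 and 30.7 CPM (log2FC -1.51 ± 0.23, adjusted p = 0.00088), and *Tapbp*, which loads peptides, from 267 and 270.5 to 102 and 97.2 CPM (log2FC -1.43 ± 0.17, adjusted p = 0.00022). The chains *H2-D1* (log2FC -0.26 ± 0.24, adjusted p = 0.444), *H2-K1* (log2FC -0.45 ± 0.29, adjusted p = 0.275) and *B2m* (log2FC -0.46 ± 0.20, adjusted p = 0.103) were not called. The fit of the remaining cells called 6 of the 9 class II and 4 of the 16 class I genes lower, and that without replicate 1 called 3 and 2. Without adult replicate 1, 3 class II genes were called, and the class I median was -0.22, against -0.76 without adult replicate 2 and -0.81 without 1 week replicate 1. *H2-DMa* (log2FC -1.10, adjusted p = 0.207) lost its call without 1 week replicate 1.

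Interferon-stimulated genes showed 7 falls and 2 rises among 28, with a median log2FC of -1.03, or -0.78 with genes at 0 counts set to their bound. The falls were above the 13.6% of all genes and the rises below the 15%. The antiviral gene *Ifit3* was at 37.1 and 12.2 CPM in adult and 1.98 and 2.56 CPM in 1 week libraries, 3 UMIs in all (adjusted p = 0.0157). Its adult level was 13.1 times that at 1 week, with a 95% exact binomial interval of 4.47 to 63.8 for counting error. *Rtp4*, another interferon target, was at 53.8 and 36.4 against 7.91 and 12.8 CPM (log2FC -2.27 ± 0.47, adjusted p = 0.00479), and *Ddx58*, which encodes the RNA sensor RIG-I, at 20.7 and 15.8 against 5.93 and 0 CPM (log2FC -2.13 ± 0.50, adjusted p = 0.00968). Adult replicate 1 was above adult replicate 2 for *Ifit3*, *Ifit1* (12.2 and 2.83 CPM) and *Ifit2* (6.37 and 1.80 CPM). Among the remaining cells, 4 fell and 2 rose. Without 1 week replicate 1, 1 gene of the 28 was called lower and none higher, and the calls of *Ifit3* (log2FC -3.26, adjusted p = 0.262) and *Rtp4* (log2FC -1.80, adjusted p = 0.174) were lost. The counts also turned on the adult libraries, with 5 higher, 4 lower and a median of -0.45 without adult replicate 1, 1 higher and 10 lower without adult replicate 2, and 4 higher and 6 lower with the study label as a covariate. These were 3 and 4 without 1 week replicate 2.

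Complement genes went both ways, with 5 of 14 up and 5 down. The 3 chains of C1q, the starter of the classical pathway, were lower at 1 week, with *C1qa* at 11046 and 9251 against 6134 and 7018 CPM (log2FC -0.63 ± 0.17, adjusted p = 0.0165). *C1qb* was at 10759 and 10265 against 5872 and 6890.3 CPM (log2FC -0.72 ± 0.19, adjusted p = 0.0148), and *C1qc* at 9436 and 9467 against 5259 and 6036 CPM (log2FC -0.74 ± 0.15, adjusted p = 0.00397). With the remaining cells alone, *C1qa* (log2FC -0.40, adjusted p = 0.125) and *C1qb* (log2FC -0.49, adjusted p = 0.0799) were not called, and *C1qc* was under the fold threshold (log2FC -0.51, adjusted p = 0.0472). Properdin, the stabiliser of the alternative pathway, is encoded by *Cfp*, which rose from 0.806 and 0.129 to 46.4 and 15.4 CPM (log2FC 5.98 ± 1.03, adjusted p = 0.00176). *C3*, the central component, was at 9.88 and 2.56 CPM at 1 week against 0.659 and 0.129 CPM (log2FC 4.03 ± 1.12, adjusted p = 0.0204), with 33.9 CPM in the neutrophil-marker cells and 3.84 CPM in the remaining cells of replicate 1. Its fitted log2FC was 3.28 without the neutrophil-marker cells (adjusted p = 0.0735) and 2.97 in the remaining cells (adjusted p = 0.109), so it stayed positive while the call was lost. In the remaining cells 4 of the 14 rose and none fell. Without replicate 1 none of the 14 was called in either direction. Without adult replicate 1, 4 rose and 1 fell, without adult replicate 2, 3 rose and 3 fell, and without 1 week replicate 2, 5 rose and 3 fell.

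The disease-associated genes rose in 16 of 23, with 2 falls and a median log2FC of 1.71, and took 9.50% and 10.3% of UMIs at 1 week against 2.98% and 2.69% in adult microglia. *Apoe* alone took 6.17% and 6.48% of UMIs at 1 week (66637 of 1080763 and 24971 of 385373) and 0.113% and 0.0765% in adult microglia. This gene (chr7:19696244-19701310, GRCm38), the lipoprotein that carries lipids between brain cells, was at 1027 and 669.9 CPM in adult and 65849 and 63891 CPM in 1 week libraries (log2FC 6.26 ± 0.27, adjusted p = 4.4e-07). *Spp1*, the secreted protein osteopontin, was at 5.05 and 8.37 against 5648 and 6056 CPM (log2FC 9.79 ± 0.68, adjusted p = 8.2e-06), and *Lpl*, lipoprotein lipase, at 17.3 and 27.3 against 677 and 668 CPM (log2FC 4.92 ± 0.29, adjusted p = 2.5e-06). The groups lay far apart for each of these 3 genes and the libraries of a group close together. *Gpnmb*, a glycoprotein of lipid-laden macrophages, had no UMI in adult microglia and 71.1 and 86.99 CPM at 1 week, at least 539-fold higher (adjusted p = 1.7e-06), and at least 196-fold whichever library is left out. *Lgals3*, a galectin that binds damaged lysosomes, was at 3.81 and 3.99 against 1672 and 757 CPM (log2FC 8.29 ± 0.58, adjusted p = 8.2e-06). *Axl*, a receptor for the clearance of dead cells, was at 4.76 and 1.80 against 105 and 115 CPM (log2FC 4.95 ± 0.48, adjusted p = 6.5e-05).

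Other members of this list behaved differently. *Trem2*, the lipid-sensing receptor of microglia, was lower at 1 week, at 3229 and 2588 against 1848 and 1760.3 CPM (log2FC -0.69 ± 0.16, adjusted p = 0.00913), and so was the tetraspanin *Cd9* (log2FC -0.81 ± 0.16, adjusted p = 0.00343). Its signalling adaptor *Tyrobp* was at 3330.1 and 2937 against 3936 and 4127 CPM (log2FC 0.36 ± 0.14, adjusted p = 0.0796), and the integrin *Itgax* at 3.003 and 2.96 against 0.988 and 2.56 CPM (2 UMIs in all at 1 week, adjusted p = 0.607), and neither was called. *Cst7*, an inhibitor of lysosomal proteases, rose from 21.9 and 14.3 to 42.5 and 81.9 CPM (log2FC 1.67 ± 0.38, adjusted p = 0.00739). Among the remaining cells, 16 of 23 rose and 1 fell (*Cd9*), and without replicate 1, 15 rose and none fell. Without adult replicate 1 the fall of *Trem2* was not called, nor in the remaining cells. *Trem2* (log2FC -0.70, adjusted p = 0.0694) and *Cd9* (log2FC -0.71, adjusted p = 0.0551) lost their calls without 1 week replicate 1, and *Cst7* without replicate 2 (log2FC 1.18, adjusted p = 0.0695). *Lgals3* was unevenly spread over cells, with 5734 and 5018 CPM in the low-marker cells and 709.6 and 370.3 CPM in the remaining cells, while *Apoe* was at 19594 and 18119 CPM in the former and 78725 and 69438 CPM in the latter.

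Lipid handling genes were up in 14 of 20 and down in 2, with a median log2FC of 4.67, or 4.18 with genes at 0 counts set to their bound. They took 6.60% and 7.005% of UMIs at 1 week and 0.268% and 0.227% in adult microglia, and *Apoe* alone made up most of the 1 week share. *Apoc1*, a small apolipoprotein that travels with APOE, was at 3.08 and 0.386 CPM in adult and 1088 and 1707 CPM in 1 week libraries (log2FC 9.48 ± 0.66, adjusted p = 8.2e-06). *Fabp5*, a fatty acid carrier, was at 2.12 and 1.16 against 349 and 299 CPM (log2FC 7.56 ± 0.39, adjusted p = 1.2e-06), and *Cd36*, a fatty acid and oxidised lipoprotein receptor, at 0.366 and 0.258 against 25.7 and 25.6 CPM (log2FC 6.26 ± 0.41, adjusted p = 5.6e-06). *Plin2*, the coat protein of lipid droplets, was at 24.3 and 23.96 against 496 and 542 CPM (log2FC 4.42 ± 0.18, adjusted p = 3.7e-07). *Abca1* (log2FC 1.03 ± 0.22, adjusted p = 0.00566) and *Abcg1* (log2FC 1.15 ± 0.19, adjusted p = 0.00152), which export cholesterol, rose by far less. *Npc1*, which releases cholesterol from lysosomes, fell (log2FC -0.77 ± 0.20, adjusted p = 0.0147). Without replicate 1, 10 of 20 rose and none fell, and in the remaining cells 15 rose and none fell, with a median of 2.89. *Abca1* (log2FC 0.94, adjusted p = 0.085) and *Npc1* (log2FC -0.96, adjusted p = 0.0784) lost their calls without replicate 1. No fall was called without adult replicate 1, and 1 without adult replicate 2 or 1 week replicate 2. Cholesterol synthesis genes were mostly not called, with 4 of 21 up and 1 down, also in the remaining cells, while 2 rose without replicate 1 and the fall was called in none of the fits that left out 1 library. These 4 rises were near the 15% of all genes, and the fall was below the 13.6%. The desaturase *Scd2*, which rose, was at 13.3 and 14.04 against 74.1 and 76.8 CPM (log2FC 2.46 ± 0.27, adjusted p = 0.00013).

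**Figure D4:**
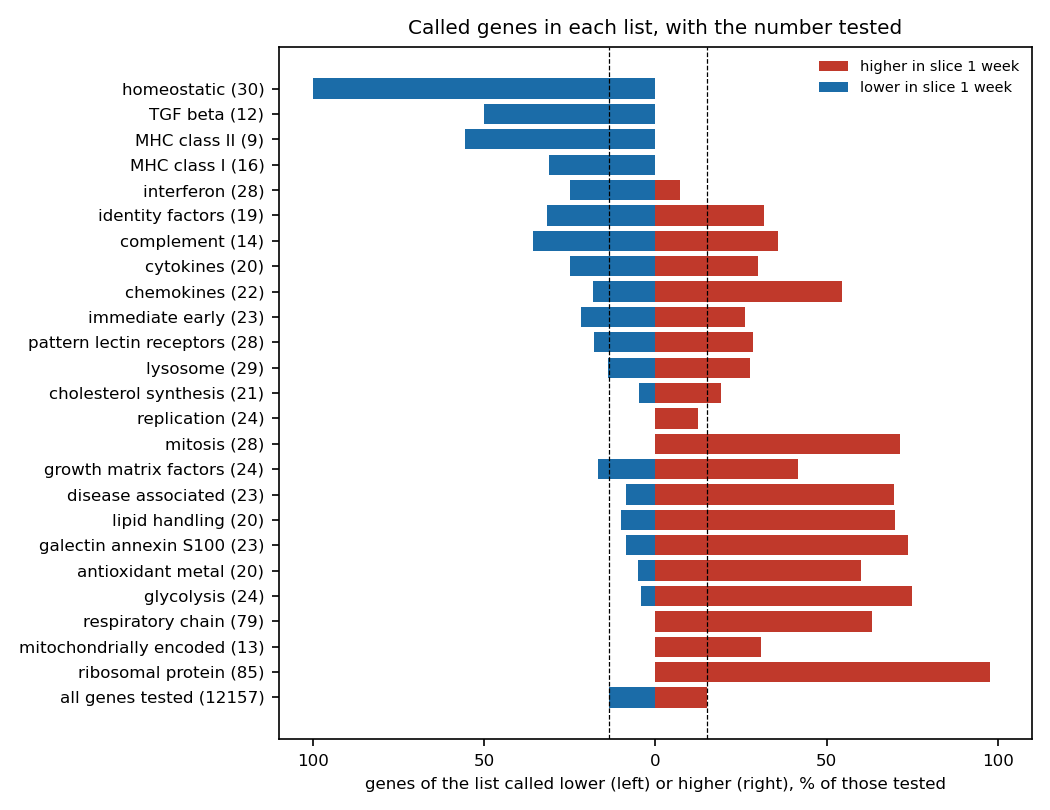
Percent of the tested genes of each list that were called lower (blue, to the left) or higher (red, to the right) in slice microglia at 1 week than in adult microglia, with the number tested in brackets and dashed lines at the shares of all genes, 13.6% and 15%. The homeostatic list reaches 100% on the lower side, and the ribosomal protein, glycolysis, galectin, mitosis, lipid handling and disease-associated lists reach far on the higher side.

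Growth and matrix factors rose in 10 of 24 and fell in 4, with a median log2FC of 0.89. *Igf1*, the insulin-like growth factor that microglia supply to developing brain, went from 0.879 and 1.16 to 382 and 414 CPM (log2FC 8.64 ± 0.23, adjusted p = 2.1e-08). *Fn1*, the matrix protein fibronectin, went from 0.220 and 0.386 to 313 and 340.3 CPM (log2FC 10.13 ± 0.60, adjusted p = 2.5e-06). Both rises were also called without replicate 1 (*Igf1* log2FC 8.73, adjusted p = 1.2e-06). *Mmp12*, a macrophage elastase, was at 1.17 and 1.29 against 178 and 20.5 CPM (log2FC 6.49 ± 0.94, adjusted p = 0.00064), and its level was 1033 CPM in the low-marker cells of replicate 1 against 25.6 CPM in the remaining cells. *Pdgfb* (log2FC -1.83 ± 0.34, adjusted p = 0.00257), a mitogen for pericytes, and *Pros1* (log2FC -1.41 ± 0.17, adjusted p = 0.00024), a bridge between dying cells and their receptors, were among the falls. With the remaining cells alone, 8 rose and 4 fell, and without replicate 1, 5 rose and 3 fell, with a median of 0.52 and no call for *Mmp12* (log2FC 4.09, adjusted p = 0.137).

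Of 20 cytokine genes, 6 rose and 5 fell, with a median log2FC of -0.35. *Il1a*, the alpha form of interleukin 1, fell from 86.9 and 71.1 to 13.8 and 2.56 CPM (log2FC -2.93 ± 0.41, adjusted p = 0.00051), and *Il18*, a relative of it, from 65.6 and 52.3 to 19.8 and 17.9 CPM (log2FC -1.62 ± 0.22, adjusted p = 0.00044). *Il1b* was at 1.68 and 1.29 CPM in adult and 23.7 and 5.12 CPM in 1 week libraries (log2FC 3.53 ± 0.79, adjusted p = 0.00736), with 74.5 CPM in the neutrophil-marker cells and 7.67 CPM in the remaining cells of replicate 1, and lost its call without those cells (log2FC 2.24, adjusted p = 0.0741). *Tnf* was not called, at 2.49 and 2.83 against 14.8 and 2.56 CPM (log2FC 2.06 ± 0.94, adjusted p = 0.125). *Il27*, a cytokine of antigen-presenting cells, was at 3.74 and 3.73 CPM in adult libraries and 0 at 1 week, at least 1.75-fold lower, with no bound left without replicate 1. In the remaining cells 3 of the 20 rose and 5 fell, and without replicate 1, 1 rose and 3 fell. Without either adult library 3 rose and 4 fell, and without 1 week replicate 2, 4 rose and 3 fell, with a median of -0.05. *Il1b* (log2FC 1.77, adjusted p = 0.653) and *Il27* (adjusted p = 0.287) were not called without 1 week replicate 1.

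Chemokine and chemokine receptor genes rose in 12 of 22 and fell in 4, with a median log2FC of 1.09, while the list's summed share of UMIs was lower at 1 week, at 0.310% and 0.319% against 0.432% and 0.371% in adult libraries. *Ccl3*, a chemoattractant of myeloid cells, went from 38.2 and 49.2 to 341 and 297 CPM (log2FC 2.88 ± 0.19, adjusted p = 6.4e-06). *Cxcl14*, a chemokine expressed in many tissues, went from 0.293 and 0 to 172 and 171 CPM (log2FC 9.79 ± 0.47, adjusted p = 7.2e-07). *Ccr1*, a receptor for CCL3, went from 19.1 and 14.4 to 210.5 and 133 CPM (log2FC 3.38 ± 0.25, adjusted p = 1.3e-05). For other members the 1 week libraries stood apart from each other. *Ccl2*, which draws monocytes, was at 16.7 and 6.18 against 39.5 and 209.8 CPM (log2FC 3.25 ± 0.78, adjusted p = 0.0103). *Ccl4* was at 59.8 and 49.1 against 222 and 51.2 CPM (log2FC 1.42 ± 0.46, adjusted p = 0.0402), and without replicate 1 its direction turned (log2FC -0.06, adjusted p = 0.959). *Cxcl2*, a neutrophil attractant, had no UMI in adult microglia and 16.8 and 5.12 CPM at 1 week, at least 96.7-fold higher (adjusted p = 0.00238) and at least 35.05-fold whichever library is left out, with 72.8 and 61.9 CPM in low-marker cells and 3.84 and 0 CPM in the remaining cells. Among the remaining cells, 10 rose and 3 fell. Without replicate 1, 7 rose and 1 fell, and the median was -0.03. Rises numbered 7 without adult replicate 2, and falls 2 without adult replicate 1 or 1 week replicate 2. *Cxcl2* was not called without 1 week replicate 1 (adjusted p = 0.206), nor *Ccl2* without adult replicate 2 (log2FC 2.74, adjusted p = 0.0567) or 1 week replicate 2 (log2FC 1.71, adjusted p = 0.163).

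Galectin, annexin, S100 and cytoskeletal genes, which rise in motile and activated macrophages, were up in 17 of 23 and down in 2, with a median log2FC of 3.00. *Lgals1*, a galectin that dampens T cells, was at 5.79 and 4.89 CPM in adult and 748 and 824 CPM in 1 week libraries (log2FC 7.19 ± 0.29, adjusted p = 3.7e-07). *Vim*, the intermediate filament vimentin, was at 1.61 and 1.67 against 265 and 194 CPM (log2FC 7.14 ± 0.40, adjusted p = 2.4e-06), and *Anxa5*, which binds exposed phosphatidylserine, at 38.4 and 50.9 against 352 and 363 CPM (log2FC 3.00 ± 0.18, adjusted p = 2.5e-06). *Anxa2*, a membrane scaffold, was at 0.952 and 0.902 against 426 and 202 CPM (log2FC 8.41 ± 0.49, adjusted p = 2.5e-06). *Lgals9* fell from 216 and 255 to 113 and 125 CPM (log2FC -0.99 ± 0.18, adjusted p = 0.00262). *Anxa1*, an annexin abundant in neutrophils, was at 3014 CPM in the neutrophil-marker cells and 35.8 CPM in the remaining cells of replicate 1. *S100a6*, a calcium-binding protein, was at 2215 and 49.9 CPM in these cell sets. *Anxa1* was at 472 and 12.8 CPM and *S100a6* at 389 and 15.4 CPM in the 1 week libraries, and neither was called without replicate 1, with fitted log2FC of 7.87 (adjusted p = 0.244) and 6.73 (adjusted p = 0.0654). *Anxa1* (log2FC 8.85, adjusted p = 0.00323) and *S100a6* (log2FC 8.42, adjusted p = 0.00141) were called higher in the remaining cells. Over both adult libraries *Anxa1* had 1 UMI and *S100a6* 3. Over all cells the ratios were 7374 (95% exact binomial interval 1317 to 2.919e+05 for counting error) and 2036 (692 to 9913). The remaining cells of replicate 1 also carried neutrophil RNA, and its part in these calls was not tested. With the remaining cells alone, 17 rose and 2 fell, and without replicate 1, 14 rose and 1 fell, with no call for *Lgals9* (log2FC -0.88, adjusted p = 0.0617).

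Among Toll-like and lectin receptors, 8 of 28 rose and 5 fell, with a median log2FC of -0.18, or -0.04 with the 3 genes at 0 counts over a group set to their bound. Falls took a share near the 13.6% of all genes. *Tlr4*, the endotoxin receptor (log2FC -1.69 ± 0.34, adjusted p = 0.00421), and *Tlr3*, a sensor of double-stranded RNA (log2FC -2.67 ± 0.56, adjusted p = 0.00523), fell, while *Tlr2*, a sensor of bacterial lipoproteins, was not called (log2FC 0.17 ± 0.28, adjusted p = 0.704). The 8 rises were the C-type lectins *Clec4a1*, *Clec4d*, *Clec4e*, *Clec4n* and *Mrc1*, the scavenger receptors *Msr1* and *Cd36* and the Fc receptor *Fcgr4*. *Clec4n*, which encodes dectin-2, was at 109 and 53.7 CPM at 1 week and had 1 UMI over both adult libraries (ratio 2000, 95% exact binomial interval 353 to 79590 for counting error), and *Msr1*, a scavenger receptor, went from 1.03 and 0.773 to 39.5 and 53.7 CPM (log2FC 5.58 ± 0.36, adjusted p = 4.4e-06). *Clec4d* and *Clec4e*, receptors of microbial glycolipids, had no UMI in adult microglia. At 1 week *Clec4d* was at 38.5 and 7.68 CPM and *Clec4e* at 40.5 and 7.68 CPM, at least 214-fold and 224-fold higher, or at least 54.8-fold for each without replicate 1. *Clec4e* was at 102 CPM in neutrophil-marker cells, 159 CPM in low-marker cells and 2.56 CPM in the remaining cells of replicate 1. In the remaining cells 8 rose and 5 fell (median -0.07), and without replicate 1, 7 rose and 1 fell (median -0.49). The median was -0.07 without adult replicate 1, where 3 fell, -0.27 without adult replicate 2 and -0.03 without 1 week replicate 2, and 0.04 with DESeq2, so its sign is not read. *Tlr4* (log2FC -1.02, adjusted p = 0.32), *Tlr3* (log2FC -1.82, adjusted p = 0.181) and *Clec4a1* (log2FC 1.34, adjusted p = 0.477) were not called without 1 week replicate 1.

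Lysosomal genes were 8 up and 4 down of 29, with a median log2FC of 0.15. The falls were near the 13.6% of all genes. The list's summed share of UMIs was lower at 1 week, at 3.99% and 4.70% against 5.58% and 5.55% in adult libraries. *Cd63*, a tetraspanin of late endosomes, rose from 787 and 846 to 1897 and 2195 CPM (log2FC 1.32 ± 0.14, adjusted p = 0.00012). The cathepsins went separate ways, with *Ctsl* (log2FC 1.10 ± 0.21, adjusted p = 0.00298) and *Ctsb* (log2FC 0.73 ± 0.14, adjusted p = 0.00383) higher, *Ctss* lower (log2FC -0.98 ± 0.21, adjusted p = 0.00628) and *Ctsd* not called (log2FC -0.12 ± 0.19, adjusted p = 0.663). *Atp6v0d2*, a proton pump subunit, had no UMI in adult microglia and 8.89 and 5.12 CPM at 1 week, at least 55.98-fold higher and at least 20.3-fold whichever library is left out, with 46.4 and 61.9 CPM in low-marker cells against 1.28 and 0 CPM in the remaining cells. When libraries were scaled by total UMIs alone, 5 rose and 6 fell, with a median of -0.05. Among the remaining cells, 9 rose and 1 fell (median 0.36), and without replicate 1, 6 rose and 1 fell (median 0.09). When 1 week replicate 2 was left out, 4 rose and 3 fell (median 0.09), and the median was 0.26 without adult replicate 1. *Ctss* (log2FC -0.91, adjusted p = 0.0866) lost its call without 1 week replicate 1, and *Ctsb* without replicate 2 (log2FC 0.58, adjusted p = 0.0446).

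Glycolysis and hypoxia-responsive genes rose in 18 of 24 and fell in 1, with a median log2FC of 2.27. Glycolytic enzymes are classical targets of the hypoxia-inducible factors, which bind the core letters ACGTG or GCGTG, and the windows upstream of 3 of these genes are shown because they hold such letters. Each window is the 250 bases before the start used in RefSeq's promoter table, 5′ to 3′ on the gene's strand, from RefSeq (GRCm38.p6), with matches to ACGTG or GCGTG on either strand in capitals. They are chr12:54203875-54204124 (minus strand) for *Egln3*, chr13:6648772-6649021 (minus strand) for *Pfkp* and chr7:46845554-46845803 (plus strand) for *Ldha*. For *Pfkp* that start is of a transcript inside the annotated gene (chr13:6579874-6649060), so its window lies within the gene.
Egln3: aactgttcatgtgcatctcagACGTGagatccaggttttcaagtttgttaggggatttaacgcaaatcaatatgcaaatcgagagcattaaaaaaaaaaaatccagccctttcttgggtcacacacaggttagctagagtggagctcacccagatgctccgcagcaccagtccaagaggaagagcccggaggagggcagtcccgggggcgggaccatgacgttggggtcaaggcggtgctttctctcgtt
Pfkp: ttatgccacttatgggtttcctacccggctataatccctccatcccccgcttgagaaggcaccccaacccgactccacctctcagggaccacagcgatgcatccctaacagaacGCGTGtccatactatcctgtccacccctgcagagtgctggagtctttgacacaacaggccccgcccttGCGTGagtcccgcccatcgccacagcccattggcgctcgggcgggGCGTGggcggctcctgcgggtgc
Ldha: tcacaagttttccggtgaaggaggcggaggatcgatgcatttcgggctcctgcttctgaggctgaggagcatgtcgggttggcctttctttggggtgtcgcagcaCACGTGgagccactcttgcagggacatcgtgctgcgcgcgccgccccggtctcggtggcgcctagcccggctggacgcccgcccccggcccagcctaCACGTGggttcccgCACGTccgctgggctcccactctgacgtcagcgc
The palindrome cacgtg counts once on each strand, which gives 1 match for *Egln3*, 3 for *Pfkp* and 5 for *Ldha*. At least 1 match was found for 20 of the 22 glycolysis genes in the sequence table (90.9%), for 61.6% of 9168 tested genes with a window, for 59.2% of the 1330 up-regulated genes with a window and for 38.6% of all 32851 windows. A match describes these letters and is not a binding site.

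*Egln3*, an oxygen sensor that is itself induced by hypoxia, was at 1.17 and 0.644 CPM in adult and 166 and 48.6 CPM in 1 week libraries (log2FC 6.91 ± 0.63, adjusted p = 4.4e-05). *Pfkp*, the platelet form of phosphofructokinase, was at 0.586 and 0 against 54.4 and 17.9 CPM (log2FC 6.78 ± 0.73, adjusted p = 0.00012), and *Ldha*, which makes lactate, at 203 and 184 against 976 and 747 CPM (log2FC 2.16 ± 0.18, adjusted p = 2.2e-05). In each case both 1 week libraries lay above both adult libraries, with replicate 1 the higher. *Gapdh*, a glycolytic enzyme, was at 442 and 347 against 2183 and 1597 CPM (log2FC 2.26 ± 0.23, adjusted p = 8.6e-05), and *Bnip3*, which marks mitochondria for removal, at 38.5 and 48.6 against 364 and 151 CPM (log2FC 2.61 ± 0.41, adjusted p = 0.00101). *Ndrg1*, a stress-responsive gene, had no UMI in adult microglia and 39.5 and 10.2 CPM at 1 week, at least 224-fold higher (adjusted p = 0.00239), or at least 73.1-fold without replicate 1. The glucose transporter *Slc2a1* was at 35.9 and 32.3 against 82.02 and 46.1 CPM (log2FC 0.99 ± 0.22, adjusted p = 0.00713), and the first enzymes of the pathway, *Hk1* (log2FC 0.56 ± 0.46, adjusted p = 0.39) and *Hk2* (log2FC -0.40 ± 0.25, adjusted p = 0.262), were not called. *P4ha1*, a collagen prolyl hydroxylase, fell (log2FC -0.96 ± 0.23, adjusted p = 0.0116). *Slc2a1* (log2FC 0.46, adjusted p = 0.476), *P4ha1* (log2FC -1.10, adjusted p = 0.0729) and *Ndrg1* (adjusted p = 0.192) were not called without replicate 1.

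*Ero1l* and *Egln3* were higher in the low-marker cells. *Ero1l*, an oxidase of the endoplasmic reticulum, was at 5.35 and 5.92 CPM in adult and 252 and 43.5 CPM in 1 week libraries (log2FC 4.85 ± 0.77, adjusted p = 0.00105), and at 1106 and 372 CPM in low-marker cells against 101 and 14.2 CPM in the remaining cells. *Egln3* was at 569 and 92.9 CPM in low-marker cells and 92.1 and 45.6 CPM in the remaining cells. Of the 24 genes, 16 rose and 1 fell in the remaining cells, with a median of 1.93, and *Ldha* was again higher (log2FC 1.91, adjusted p = 8.8e-06). Without replicate 1, 11 rose and none fell, and no fall was called without adult replicate 1 or 1 week replicate 2 either. *Ero1l* (log2FC 2.98, adjusted p = 0.144) was among the calls lost without replicate 1.

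Antioxidant and metal-handling genes rose in 12 of 20 and fell in 1, with a median log2FC of 1.63. The metallothioneins, which bind zinc and copper, are induced through metal response elements, and the same windows are shown for *Mt1* at chr8:94178839-94179088 and *Mt2* at chr8:94172368-94172617 (both plus strand), with matches to the core letters TGCACNC or TGCGCNC on either strand in capitals.
Mt1: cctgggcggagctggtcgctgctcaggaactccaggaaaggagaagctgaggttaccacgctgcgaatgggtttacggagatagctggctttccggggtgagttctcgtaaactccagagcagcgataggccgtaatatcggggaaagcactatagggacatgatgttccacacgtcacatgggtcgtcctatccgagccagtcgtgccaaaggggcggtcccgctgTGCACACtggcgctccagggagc
Mt2: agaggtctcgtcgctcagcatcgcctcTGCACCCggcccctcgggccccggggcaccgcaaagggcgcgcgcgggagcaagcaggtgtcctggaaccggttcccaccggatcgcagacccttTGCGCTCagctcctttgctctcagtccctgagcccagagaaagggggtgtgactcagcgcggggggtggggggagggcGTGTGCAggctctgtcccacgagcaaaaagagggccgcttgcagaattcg
The *Mt1* window held 1 match and the *Mt2* window 3, and letters outside the windows were not searched. Of the 16 genes of this list in the sequence table, 6 (37.5%) held a match, against 33.8% of tested genes, 31.0% of up-regulated genes and 21.4% of all windows, so the list was near the share of all tested genes. *Mt1* was at 215 and 259 CPM in adult and 1087 and 929 CPM in 1 week libraries (log2FC 2.09 ± 0.22, adjusted p = 9.6e-05), and *Mt2* at 5.13 and 4.77 against 352 and 118 CPM (log2FC 5.62 ± 0.68, adjusted p = 0.00022).

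*Hmox1*, the heme-degrading enzyme, was at 31.7 and 26.3 against 511 and 207 CPM (log2FC 3.66 ± 0.34, adjusted p = 5.2e-05), with 1735 and 991 CPM in low-marker cells against 306 and 139.6 CPM in the remaining cells. The ferritin chains that store iron rose, *Fth1* from 2939 and 2596 to 8189 and 6353 CPM (log2FC 1.39 ± 0.16, adjusted p = 0.00019) and *Ftl1* from 3122 and 3688 to 12541 and 13650.0 CPM (log2FC 1.94 ± 0.15, adjusted p = 1.6e-05). *Slc40a1*, the iron exporter ferroportin, fell from 149.9 and 164 to 32.6 and 17.9 CPM (log2FC -2.51 ± 0.24, adjusted p = 6.9e-05). *Lcn2*, an iron-siderophore binder of neutrophil granules, was at 0.439 and 0 against 1148 and 0 CPM, and *Gsr*, glutathione reductase, at 15.4 and 20.5 against 174 and 58.8 CPM. In the neutrophil-marker cells they were at 6860.4 and 962 CPM, and *Gsr* was not called in the remaining cells (log2FC 1.01, adjusted p = 0.0561). There 10 of 20 rose and 1 fell, as also without replicate 1, and 2 fell without 1 week replicate 2.

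Mitosis genes rose in 20 of 28 with none lower and a median log2FC of 2.21, and took 0.193% and 0.201% of UMIs at 1 week against 0.0636% and 0.0631% in adult microglia. *Mki67*, which encodes the proliferation antigen Ki-67, was at 1.98 and 1.67 CPM in adult and 20.8 and 30.7 CPM in 1 week libraries (log2FC 3.69 ± 0.51, adjusted p = 0.00049). *Cenpa*, the centromeric histone, was at 4.83 and 4.64 against 64.2 and 94.7 CPM (log2FC 4.0 ± 0.29, adjusted p = 1.2e-05), and *Ccnb2*, a mitotic cyclin, at 2.71 and 2.19 against 37.6 and 58.8 CPM (log2FC 4.17 ± 0.38, adjusted p = 4.3e-05). *Birc5*, survivin, was at 3.88 and 2.83 against 55.3 and 74.2 CPM (log2FC 4.18 ± 0.58, adjusted p = 0.00049). The topoisomerase *Top2a* was not called, at 4.83 and 3.61 against 10.9 and 7.68 CPM (log2FC 1.20 ± 0.70, adjusted p = 0.223). In the remaining cells 19 of 28 rose, and without replicate 1, 13 did. Of 24 replication genes 3 rose, a share below that of all genes, with a median log2FC of 1.27. Both 1 week libraries lay above both adult libraries for 15 and below for 2, against 27.2% and 37.1% of all genes. DESeq2 and the fit of these 4 libraries alone each called 10 higher, the fit with the study label 7, that with no filter on low counts 15 and that with the replicate block 1. Among the remaining cells, 2 rose and 1 fell, with a median of 0.87, without replicate 1 none was called, and without adult replicate 1, 1 was. *Mcm3*, a subunit of the replicative helicase, was at 37.8 and 47.3 against 34.6 and 43.5 CPM (log2FC -0.17 ± 0.35, adjusted p = 0.759). *2810417H13Rik*, the clamp-associated factor PAF15, was at 2.64 and 2.45 against 48.4 and 38.4 CPM (log2FC 4.13 ± 0.64, adjusted p = 0.00098), with 156 CPM in the neutrophil-marker cells and 20.5 CPM in the remaining cells of replicate 1, and lost its call without that replicate (log2FC 3.93, adjusted p = 0.0639).

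Ribosomal protein genes rose together, 83 of 85 with none lower and a median log2FC of 1.56, and took 15.7% and 16.9% of UMIs at 1 week against 7.24% and 5.83% in adult microglia. *Rpl10* was at 1225 and 912 against 2531 and 2620.0 CPM (log2FC 1.27 ± 0.18, adjusted p = 0.0006), and *Rps26* at 335 and 228 against 1287 and 1394 CPM (log2FC 2.25 ± 0.24, adjusted p = 9.7e-05), both structural proteins of the ribosome. The 82 calls in the remaining cells and 80 without replicate 1 were close to this, and with library size alone 83 rose and 1 fell. Many of these genes have pseudogenes with near-identical sequence, so their counts are uncertain to that extent. Nuclear genes of the respiratory chain rose in 50 of 79 with none lower (median 0.71), for instance the ATP synthase subunit *Atp5c1* from 195 and 185 to 362 and 363 CPM (log2FC 0.93 ± 0.14, adjusted p = 0.00082). With the remaining cells alone, 47 rose, and with library size alone 33 did. Mitochondrially encoded genes rose in 4 of 13 (median 0.53) and in 6 of 13 in the remaining cells. Without adult replicate 1 this was 8 of 13 (median 1.05), and 2 of 13 without adult replicate 2, 1 week replicate 1 or 1 week replicate 2 (medians 0.34, 0.66 and 0.36). *mt-Co1*, a subunit of cytochrome c oxidase, was at 1265 and 931 against 3683 and 4286 CPM (log2FC 1.86 ± 0.18, adjusted p = 6e-05), and cells past 5% of mitochondrial UMIs had been removed in all libraries.

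Immediate early genes, which respond within minutes to stimulation and to tissue dissociation, rose in 6 and fell in 5 of 23. *Jun* fell from 373 and 281 to 45.5 and 53.7 CPM (log2FC -2.75 ± 0.30, adjusted p = 0.00012), and *Fos* was at 16.04 and 0.773 against 11.9 and 10.2 CPM (log2FC 0.32 ± 1.21, adjusted p = 0.879), with adult replicate 1 apart from adult replicate 2. *Ier3*, a survival gene, rose from 4.25 and 6.83 to 90.9 and 43.5 CPM (log2FC 3.75 ± 0.34, adjusted p = 4.6e-05). In the remaining cells 6 rose and 6 fell, and without replicate 1, 3 rose and 4 fell.

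Among DEGs at an average log2 CPM of 5 or more, the 15 genes with the largest fitted rises included 13 whose level in replicate 1 was highest in the neutrophil-marker cells. Of these 15, 10 had no UMI in adult microglia, where the fitted value is no bound, so their order is not read. *Stfa1*, *Gm5483*, *BC100530*, *Stfa2*, *Stfa2l1* and *2010005H15Rik*, stefins or stefin-like protease inhibitors of neutrophils, had no UMI in adult microglia. *Stfa1* was at 4474 and 130.5 CPM at 1 week, at least 23298-fold higher, or at least 932-fold without replicate 1, and at 28268 CPM in the neutrophil-marker cells against 389 and 8.55 CPM in the remaining cells. The stefin genes are near-identical copies, and reads may be split between them. *Retnlg*, *Ngp*, *Hp*, *S100a9*, *S100a8*, *Anxa1* and *Clec4d* were the other members highest in that cell set of replicate 1, while *Gpnmb* and *Meg3* were highest in its low-marker cells. The 15 genes with the largest fitted falls, of which 1 (*Upk1b*) had no UMI at 1 week, included homeostatic genes described above and others. *Slc1a3*, a glutamate transporter shared with astrocytes, went from 136 and 129 to 3.95 and 0 CPM (log2FC -5.55 ± 0.62, adjusted p = 0.00015). *Adgrg1*, the adhesion receptor GPR56, went from 305 and 268 to 7.91 and 10.2 CPM (log2FC -5.05 ± 0.53, adjusted p = 9.7e-05), and *Fscn1*, the actin bundler fascin, from 693 and 919 to 43.5 and 25.6 CPM (log2FC -4.45 ± 0.33, adjusted p = 1.3e-05). *Lrba*, a vesicle trafficking protein, went from 194 and 172 to 4.94 and 0 CPM (log2FC -5.70 ± 0.70, adjusted p = 0.00024), and *St3gal6*, a sialyltransferase, from 476 and 520.1 to 47.4 and 51.2 CPM (log2FC -3.35 ± 0.27, adjusted p = 1.8e-05).

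The 1 week libraries were also set against slices after 1 day and after 3 weeks, in the same fit. These comparisons share the 1 week libraries, so their values are given side by side. Against 1 day, 597 genes were higher at 1 week (4.91%) and 638 lower (5.25%). Against 3 weeks, 424 were higher (3.49%) and 271 lower (2.23%). Slices at 1 day also held neutrophil-marker cells, 13.1% and 10.8% of cells, while slices at 3 weeks held none among 1153 and 3740 cells. The share of low-marker cells was 50.2% and 53.4% in the 1 day libraries, 25% and 19.7% in the 1 week libraries and 5.38% and 16.6% in the 3 week libraries. With both kinds of cells left out of every library, 867 genes were called against 1 day and 362 against 3 weeks. Without 1 week replicate 1 the counts called in both directions were 218 against 1 day and 46 against 3 weeks.

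Homeostatic genes at 1 week were above 1 day in 17 of 30 with none below, and below 3 weeks in 4 with 1 above. The fit of the remaining cells gave 9 above 1 day and none below (median log2FC 0.85, against 1.20 over all cells), and 3 below 3 weeks with none above. *P2ry12* (log2FC 1.28, adjusted p = 0.0437) and *Csf1r* (log2FC 0.88, adjusted p = 0.0295) kept their calls against 1 day there, and *Tmem119* did not (log2FC 0.92, adjusted p = 0.235). *P2ry12* was at 155 and 76.96 CPM at 1 day, 426 and 402 CPM at 1 week and 978 and 818 CPM at 3 weeks, which passed the test against 1 day (log2FC 1.84 ± 0.30, adjusted p = 0.00547) and not against 3 weeks (log2FC -1.12 ± 0.29, adjusted p = 0.0532). *Tmem119* was at 100.1 and 44.8 CPM, 215 and 228 CPM and 535 and 389 CPM at these times (against 1 day log2FC 1.62 ± 0.41, adjusted p = 0.0313, against 3 weeks log2FC -1.06 ± 0.40, adjusted p = 0.152). *Csf1r* was at 645 and 492 CPM, 1283 and 1504 CPM and 1483 and 1031 CPM (against 1 day log2FC 1.29 ± 0.22, adjusted p = 0.00633, against 3 weeks log2FC 0.15 ± 0.21, adjusted p = 0.766). Adult levels lay above all 6 slice libraries for each of these 3 genes. *Tgfbr2* was higher at 1 week than at 1 day, at 101 and 118 CPM against 28.8 and 34.7 CPM (log2FC 1.75 ± 0.21, adjusted p = 0.00251).

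*Apoe* and *Apoc1* were higher at 1 week than at either other slice time. *Apoe* was at 7536 and 6352 CPM at 1 day, 65849 and 63891 CPM at 1 week and 27036 and 20517 CPM at 3 weeks (against 1 day log2FC 3.22 ± 0.23, adjusted p = 0.00022, against 3 weeks log2FC 1.45 ± 0.22, adjusted p = 0.00555). *Apoc1* was at 153 and 105 CPM, 1088 and 1707 CPM and 328 and 366 CPM (against 1 day log2FC 3.44 ± 0.49, adjusted p = 0.00361, against 3 weeks log2FC 2.00 ± 0.46, adjusted p = 0.0332). The other lipid genes had other orders. *Lpl* was at 2645 and 2795 CPM at 1 day and 1124 and 1593 CPM at 3 weeks, both above 1 week (log2FC -2.02 ± 0.25, adjusted p = 0.0028 and log2FC -1.02 ± 0.25, adjusted p = 0.0418, the second not called in the remaining cells, adjusted p = 0.146), and *Cd36* went from 181 and 190.1 CPM at 1 day to 25.7 and 25.6 CPM at 1 week and 10.5 and 9.04 CPM at 3 weeks (against 1 day log2FC -2.86 ± 0.25, adjusted p = 0.00085, against 3 weeks log2FC 1.41 ± 0.28, adjusted p = 0.0191). *Gpnmb* was at 18.3 and 21.5 CPM, 71.1 and 86.99 CPM and 236 and 151 CPM at these times (against 1 day log2FC 1.95 ± 0.27, adjusted p = 0.00428, against 3 weeks log2FC -1.31 ± 0.26, adjusted p = 0.0203). *Spp1* was at 10974 and 11538 CPM and 4391 and 1253 CPM, and neither comparison passed the test (log2FC -0.94 ± 0.47, adjusted p = 0.234 and log2FC 1.05 ± 0.47, adjusted p = 0.228). *Igf1* was above both other times at 1 week (against 1 day log2FC 0.69 ± 0.15, adjusted p = 0.0188, against 3 weeks log2FC 0.77 ± 0.15, adjusted p = 0.0184), at 264 and 228 CPM at 1 day and 246 and 221 CPM at 3 weeks.

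Against 3 weeks, the disease-associated list was lower at 1 week in 11 of 23 genes and higher in 2, and in 8 and 2 among the remaining cells. *Trem2* was at 918 and 827 CPM at 1 day, 1848 and 1760.3 CPM at 1 week and 3193 and 3823 CPM at 3 weeks (against 1 day log2FC 1.05 ± 0.16, adjusted p = 0.00458, against 3 weeks log2FC -0.96 ± 0.16, adjusted p = 0.00878). Lysosomal genes at 1 week were above 1 day in 12 of 29 and below 3 weeks in 10, with none the other way. With cells of both kinds left out, 7 were above and 1 below 1 day, and 8 below 3 weeks. *Ctsd*, a cathepsin that was not called against adult microglia, was at 3448 and 3002 CPM at 1 day, 7535 and 9244 CPM at 1 week and 25962 and 19600.0 CPM at 3 weeks (against 1 day log2FC 1.38 ± 0.19, adjusted p = 0.00342, against 3 weeks log2FC -1.44 ± 0.19, adjusted p = 0.00322).

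Chemokine genes were lower at 1 week than at 1 day in 8 of 22 and higher in 1, and in 5 and 1 of 21 among the remaining cells. *Ccl3* was at 681 and 831 CPM at 1 day, 341 and 297 CPM at 1 week and 870.3 and 732 CPM at 3 weeks, lower at 1 week than at either time (log2FC -1.24 ± 0.18, adjusted p = 0.00426 and log2FC -1.32 ± 0.18, adjusted p = 0.00369). *Ccl4* was at 916 and 1199.6 CPM at 1 day and 955 and 627 CPM at 3 weeks, likewise above 1 week (log2FC -2.86 ± 0.47, adjusted p = 0.00589 and log2FC -2.44 ± 0.47, adjusted p = 0.0165). Glycolysis and antioxidant genes were each lower at 1 week than at 1 day in 7 members and higher in none, and in 9 and 5 members among the remaining cells, again with none higher. *Hmox1* was at 1693 and 1936 CPM at 1 day, 511 and 207 CPM at 1 week and 348 and 347 CPM at 3 weeks (against 1 day log2FC -2.31 ± 0.32, adjusted p = 0.00351, against 3 weeks log2FC 0.08 ± 0.31, adjusted p = 0.939). *Egln3* was at 141 and 122 CPM at 1 day and 62.4 and 126 CPM at 3 weeks and passed neither test (log2FC -0.16 ± 0.44, adjusted p = 0.865 and log2FC 0.31 ± 0.44, adjusted p = 0.762). *Mki67* did not pass either test (log2FC 0.65 ± 0.43, adjusted p = 0.376 and log2FC -0.66 ± 0.40, adjusted p = 0.383), at 9.44 and 19.8 CPM at 1 day and 35.8 and 40.2 CPM at 3 weeks.

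**Figure D5:**
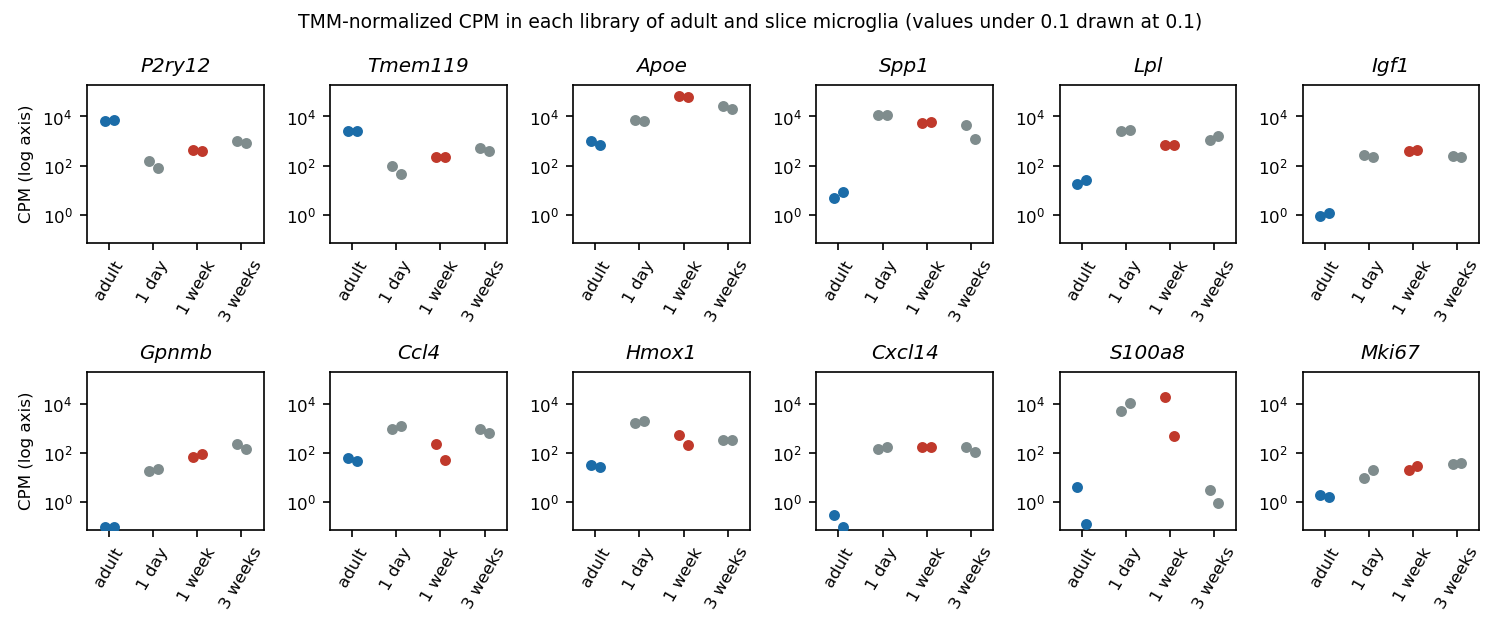
TMM-scaled CPM of 12 genes in each library of adult microglia (blue), slice microglia at 1 day (grey), 1 week (red) and 3 weeks (grey), on log axes, with values under 0.1 drawn at 0.1. *Apoe* is highest at 1 week, *P2ry12* and *Tmem119* stay below adult levels at each slice time, and *S100a8* is high at 1 day and in 1 week replicate 1 and near adult levels at 3 weeks.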

How the data were processed

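The deposited values were UMI counts per gene and cell barcode, 1 filtered matrix per library, which the authors made from 10x Genomics 3' libraries. The submitters' processing notes name Cell Ranger 1.3.0 and mm10. The matrices held 18292 gene symbols, of which 13 were listed more than once and summed. Samples were grouped by GEO's labels. The limits on mitochondrial share (5%), detected genes (400) and UMIs (30000) took out 578 of 19637 barcodes, and no doublet caller was run. Raw counts were summed per library and tested with edgeR 4.0.16 (R 4.3.3): filterByExpr with a minimum count of 10, TMM factors, and a quasi-likelihood fit of all 10 libraries with 1 term per group. The biological coefficient of variation was 18.3%. With 2 libraries against 2, an exact permutation test cannot go below p = 0.333, so no single value was tested that way.

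The members and gene lists were chosen with earlier results of these data known. Genes named in the text were the 15 largest rises and 15 largest falls among DEGs with average log2 CPM of at least 5 and groups apart, each list's first 3 genes and up to 4 DEGs of largest change, and *Xist* with Y-linked genes. Other genes named were chosen after their values were seen, and a few genes of the lists are counted but not reported here by name. Counts of 0 over a group give a fold bound from 3 counts, and 1 to 3 counts an exact binomial interval. Sequences and gene positions are from RefSeq, GRCm38.p6. Script steps were tested on simulated data. Alternatives were DESeq2 1.42.0, other scalings and filters, a replicate block, the study label and left-out replicates or cells. Shares of cells with a UMI were computed after thinning and are not reported.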

Additional observations from a re-analysis of the deposited data

How the results depend on the processing

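The counts of genes higher and lower at 1 week than in adult microglia (1822 and 1650) became 1518 and 2507 with library size alone, which turned the share higher among called genes from 52.5% to 37.7%, and 2126 and 1300 (62.05% higher) with DESeq2. Leaving out cells with 3 or more marker genes of other cell types, which left only replicate 2 at 1 week, gave 676 and 350. Leaving out 1 library in turn gave 859 to 1614 higher and 587 to 1402 lower, lowest without 1 week replicate 1. Against 1 day the 1235 called became 1979 with no filter on low counts and 218 to 803 without 1 library of the 1 week group. Against 3 weeks the 695 became 1722 with no filter, 46 to 456 without 1 library and 362 in the remaining cells. The cause was not tested.

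With the replicate number as a block the counts were 1775 and 1589. Deviations of same-numbered libraries correlated at 0.05, so the samples share only a number. Without 1 week replicate 1, *Ccl4* (log2FC -0.0636), *Cfb* (-5.20), *Lcn2* (-4.98), *Cd163* (-4.08) and *Lyve1* (-3.48) turned in direction, and over the libraries left out in turn they reached 1.99, 3.86, 15.9, 5.60 and 8.46. Of these, *Ccl4* (-0.0459), *Cfb* (-4.20) and *Lcn2* (-3.93) also turned with the filter on marker genes of other cell types. With that filter *C2* (-5.23), *Hp* (-2.60) and *Tfec* (-5.22) turned too. Where a group was at 0 counts such fitted values are no bound. Of 197 genes, those given by the naming rule and the others named with a log2FC, 169 were called, and 87 of these stayed called under every alternative that gave a value. Genes named in the text whose call was lost without 1 week replicate 1 were *2010005H15Rik*, *2810417H13Rik*, *Abca1*, *Anxa1*, *C2*, *Cfb*, *C1qa*, *C1qb*, *C1qc*, *C3*, *Ccl4*, *Cfp*, *Cxcl2*, *Ero1l*, *H2-DMa*, *Ifit3*, *Il1b*, *Il27*, *Irf8*, *Lcn2*, *Lgals9*, *Mmp12*, *Ndrg1*, *Ngp*, *Rtp4*, *S100a6*, *Skil*, *Slc2a1*, *Smad7*, *Stfa2*, *Stfa2l1*, *Tfec*, *Tlr3*, *Cd163*, *Cd9*, *Clec4a1*, *Ctss*, *Ly6c2*, *Lyve1*, *Npc1*, *P4ha1*, *Sall1*, *Sall3*, *Tlr4* and *Trem2*. Without 1 week replicate 2 they were *Ccl2*, *Ctsb*, *Ifit3*, *Il27*, *Smad7*, *Cst7*, *Npc1* and *P4ha1*, without adult replicate 1 *Cfb*, *C1qa*, *C1qb*, *Ccl4*, *Il27*, *Ngp*, *Smad7*, *Cd163*, *Ly6c2*, *Npc1*, *P4ha1* and *Trem2*, and without adult replicate 2 *Cfb*, *C3*, *Ccl2*, *Ccl4*, *Il27*, *Irf8*, *Ngp*, *Skil*, *Ly6c2* and *Lyve1*. Fits without neutrophil-marker cells (1646 and 1668) and in the remaining cells (1472 and 1278) were added after seeing the data. The depth of 61 cells in 1 week replicate 2 limits every result that rests on it.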
